A study of Mus musculus with 4 samples.

Results

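The mRNAs that encode the initiation and elongation factors of cytosolic translation were described here by the NAT10 peaks listed on them. A gene belonged to the set when its symbol began with Eif or Eef and a digit, and Eef1a1 was left out. The rule looks at names alone, so it also takes in regulators of these factors, such as the eIF2 kinases and the eEF1A methyltransferases. The set itself was chosen with earlier results of these data known. Of 21900 protein-coding genes named by RefSeq, 69 had such a symbol. Of these, 18 had a listed peak, with 56 of the 4172 distinct peaks in the list.

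NAT10, the acetyltransferase that places N4-acetylcytidine on RNA, was immunoprecipitated from 32D cells, a mouse bone marrow line kept alive by interleukin-3. In eCLIP, UV light links proteins to the RNA they touch, and the RNA fragments that come down with an antibody are sequenced and set against input RNA. There were 2 NAT10 immunoprecipitates and 2 inputs taken without antibody. All were from wild-type 32D cells grown with interleukin-3 and UV-crosslinked, and nothing in the labels says whether they came from separate cultures.

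The authors summarised these libraries in 1 list of peaks. Each peak has a log2 fold of immunoprecipitate over input, a -log10 p and a class (5' UTR, exon or 3' UTR), all of them the authors' own values. The list holds no value per library, so no spread between replicates can be given and no difference below was tested. It contains only peaks with a log2 fold of at least 3.00 and a -log10 p of at least 3.07. A gene without a listed peak is therefore not shown to be unbound. Reads were not counted per gene here, so a peak cannot be set against the amount of its mRNA.

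Translation begins when eIF2 brings the initiator tRNA to the small ribosomal subunit, helped by eIF1, eIF1A, eIF3 and eIF5. The eIF4F complex, made of the cap-binding protein eIF4E, the scaffold eIF4G and the helicase eIF4A, opens the 5' end of the mRNA and recruits that subunit. Elongation then runs on eEF1A, which delivers aminoacyl-tRNAs, its exchange complex eEF1B, and eEF2, which moves the ribosome along.

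A listed peak was found on 26.1% of the translation factor genes (exact Clopper-Pearson 95% interval 16.3 to 38.1%, which covers counting error only), against 7.33% of all protein-coding genes (1605 of 21900). Among genes of cytosolic ribosomal proteins the share was 78.4% (69 of 88). A peak above the list's median fold was found on 6 of the 69 (8.70%), against 3.95% of all protein-coding genes. The exact 95% interval of that share starts at 3.26% and so holds the background. A peak with a -log10 p of 5 or more was found on 11 (15.9%, exact 95% interval 8.24 to 26.7%), against 4.1%. At least 2 separate bound stretches were found on 13 (18.8%, 10.4 to 30.1%), against 3.44%. The background holds genes that may not be transcribed in 32D cells. The intervals also leave out that the set was chosen with earlier results of these data known. The eIF4 group had the most members with a peak, 7 of 17. The eIF5 group had 2 of 4, the eIF1 group 2 of 5, the elongation group 3 of 13 and the eIF3 group 3 of 14. In the eIF2 group 1 of 15 had a peak. Eif6, which keeps the ribosomal subunits apart, had none. The intervals of these groups are wide and overlap one another. Only that of the eIF4 group, which starts at 18.4%, lies above the background of 7.33%. The intervals of all the other groups, eIF2 included, hold the background.

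**Figure D1:**
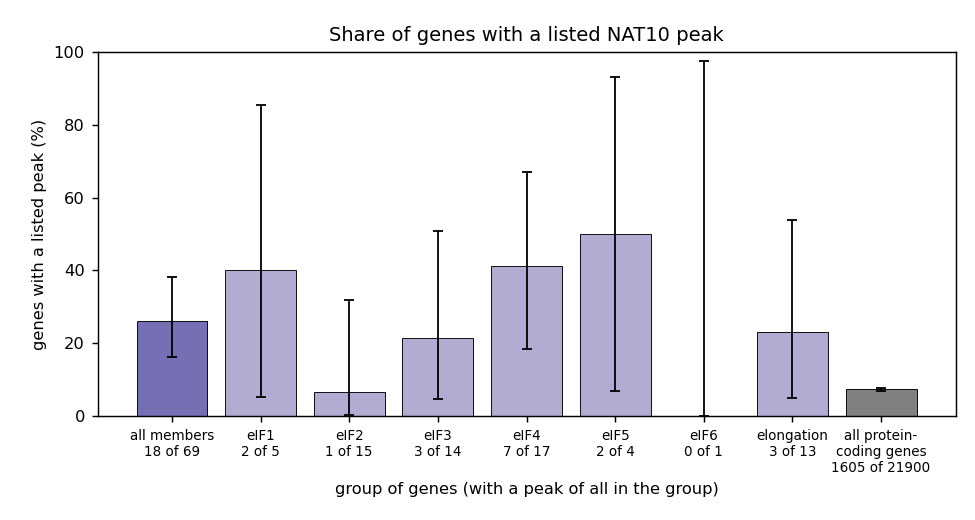
Share of genes with a listed NAT10 peak, in percent, for all 69 translation factor genes, for each group by name, and for all protein-coding genes at the right. Bars are shares and error bars are exact 95% binomial intervals; the eIF4 group stands at 41.2% (7 of 17) and the eIF2 group at 6.67% (1 of 15), with overlapping intervals.

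The peaks on these mRNAs were mostly of modest fold within the list. Of the 56 peaks, 31 had a log2 fold from 4 to 5, 18 lay below 4 and 7 lay above 5. The median was 4.27, against 4.60 over the 4096 peaks of other genes. Taking the strongest peak of each gene, the 18 genes had a median log2 fold of 4.35 (distribution-free 95% interval 4.00 to 5.12), against 4.69 for the other 1607 genes. The interval holds the value of the other genes. Among the 1626 gene symbols of the list, 5 of the 18 had a strongest peak above the median gene and 13 had one at or below it. Eif4g2, Eif4g3 and Eif4a2 ranked highest, at 11, 158 and 267, with the rank of Eif4g2 resting on a peak of only 3 nt. When only peaks above the list's median fold were kept, 6 of the 18 genes were left, and their median lay above that of other genes (values in the closing section). That filter acts on the same fold that is compared, so it shows no reversed order for the 18 genes.

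**Figure D2:**
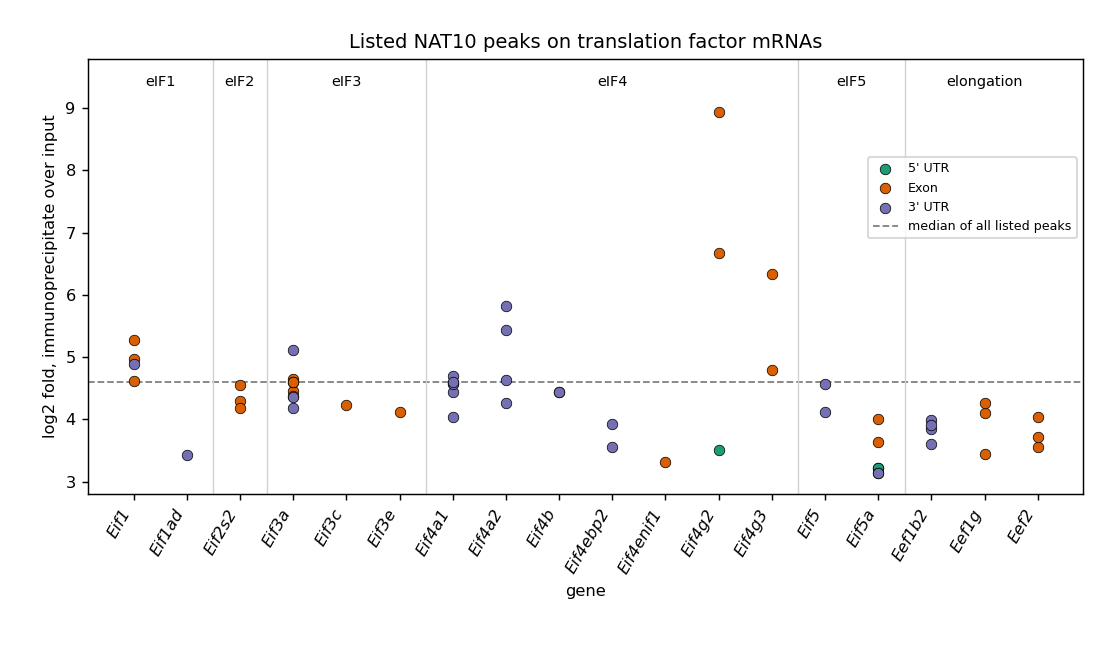
Log2 fold of immunoprecipitate over input for each of the 56 listed peaks, by gene, with groups divided by vertical lines. Points are single peaks coloured by the authors' class, and the dashed line is the median of all listed peaks (4.60); Eif4g2 stands highest with 8.94, and all 6 peaks of Eif5a lie at or below 4.00.

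The eIF4 group held both the strongest and the widest peaks of the set. Eif4g2 encodes an eIF4G-like protein (also called DAP5) that lacks the part that binds eIF4E and serves cap-independent initiation. Its strongest peak had a log2 fold of 8.94 (489-fold), which placed Eif4g2 at rank 11 of 1626 gene symbols. That peak is only 3 nt wide, at chromosome 7, 110675268 to 110675270 (GRCm39, minus strand, exon class), with a -log10 p of 117. It touches a peak of 68 nt at 110675271 to 110675338 with a log2 fold of 6.68, whose -log10 p stood at the ceiling of 400. Together they form 1 bound stretch of 71 nt. The other peak of Eif4g2, of 22 nt, lay 5482 nt upstream in the 5' UTR with a log2 fold of 3.51. With peaks under 10 nt left out, the strongest fold of Eif4g2 was thus 6.68 in place of 8.94. The rank of 11 rests on the 3 nt peak, and the rank at 6.68 was not computed.

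Eif4g3 encodes the scaffold eIF4GII, one of the eIF4G proteins that join the cap-binding protein to the ribosome. It had 2 peaks, both in the exon class and 6943 nt apart. The downstream one, at chromosome 4, 137897759 to 137897861, reached a log2 fold of 6.34 with a -log10 p of 18.7, and the upstream one 4.79. The gene of the main scaffold, Eif4g1, had no listed peak.

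The helicase genes Eif4a1 and Eif4a2, which encode closely related forms of eIF4A, were both bound, and all their peaks were classed as 3' UTR. Eif4a2 had 4 peaks within 1909 nt. Its folds were higher downstream. The 2 downstream peaks had log2 folds of 5.82 and 5.44, against 4.64 and 4.26 for the 2 upstream ones. The downstream pair lay at chromosome 16, 22931985 to 22932136 and 22932316 to 22932481. The downstream peaks were also wide, at 152 and 166 nt, and 166 nt was the greatest width in the set. Eif4a1 had 6 peaks of more even fold, from 4.05 to 4.69. They lay in 2 stretches of 3 peaks each, of 556 nt upstream and 159 nt downstream, 2827 nt apart. The whole span of 3542 nt equals 64.5% of the gene's length in the RefSeq table, so these peaks reach far from the gene's 3' end although the list names them all 3' UTR. The transcript models behind the class are named neither in the labels nor in the file header. Eif4a3, the eIF4A relative of the exon junction complex, and Eif4a3l1 had no listed peak.

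Eif4b, whose protein stimulates eIF4A, had 2 peaks of 100 and 153 nt in its 3' UTR, both with a log2 fold of 4.43. Eif4ebp2, whose protein holds eIF4E away from eIF4G, had 2 touching 3' UTR peaks (3.93 and 3.56) that form a stretch of 168 nt. Eif4enif1 encodes 4E-T, a repressor that binds eIF4E and carries it into the nucleus, and had a single exon peak of 3.31, close to the lower limit of the list. Its span overlaps that of Sfi1, which also has a listed peak. No peak was listed for the cap-binding proteins themselves (Eif4e, Eif4e1b, Eif4e2 and Eif4e3), for Eif4ebp1 and Eif4ebp3, or for Eif4h.

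In the eIF3 complex, the large scaffold on the small ribosomal subunit, Eif3a had 8 peaks, the most of any gene in the set. They were spread over 26709 nt, 90.3% of the gene's length in the RefSeq table, with 5 in exons and then 3 in the 3' UTR. From the 5' end, the exon peaks had log2 folds of 4.66, 4.46, 4.60, 4.38 and 4.61. The 3' UTR peaks followed with 4.18, 5.12 and 4.36, and the strongest lay at chromosome 19, 60749626 to 60749731. Apart from that one, the folds kept to a narrow band of 4.18 to 4.66. Eif3c had 1 exon peak of 119 nt (4.23), and Eif3e had 1 of 116 nt (4.11). No peak was listed for Eif3b, Eif3d, Eif3f, Eif3g, Eif3h, Eif3i, Eif3j1, Eif3j2, Eif3k, Eif3l and Eif3m.

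For eIF2, Eif2s2, the gene of the beta subunit, had 3 exon peaks with log2 folds of 4.29, 4.55 and 4.18, over 14202 nt of the gene. The other subunit genes, Eif2s1, Eif2s3x and Eif2s3y, had none. None was listed for the 5 genes of eIF2B (Eif2b1, Eif2b2, Eif2b3, Eif2b4 and Eif2b5), the complex that reloads eIF2 with GTP, or for the 4 eIF2 kinases (Eif2ak1, Eif2ak2, Eif2ak3 and Eif2ak4), which shut down initiation under stress. Eif2a and Eif2d also had none.

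Eif1, whose protein guards the choice of the start codon, had 4 peaks. They lay within 686 nt of a short gene, 3 in exons (4.61, 4.97 and 5.28) and 1 in the 3' UTR (4.88). All of them were above the median fold of the list. Its near relative Eif1b had no listed peak, nor did Eif1a and Eif1ax, the genes of eIF1A. Eif1ad, which is related to eIF1A by its domain, had 1 peak of 3.43 in the 3' UTR, and its span overlaps that of Banf1, which also has a listed peak.

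Eif5, whose protein makes eIF2 hydrolyse its GTP at the start codon, had 2 peaks in the 3' UTR, 8 nt apart, with log2 folds of 4.11 and 4.57. Eif5a carries the rare amino acid hypusine and, in spite of its name, is known for easing elongation at difficult sequences. It had 6 peaks, 2 in each class, and was the only gene of the set with peaks in all 3 classes. Along the mRNA the 5' UTR peaks had log2 folds of 3.23 and 3.22, the exon peaks 4.00 and 3.64, and the 3' UTR peaks 3.14 and 3.13. The exon pair touch each other and the second 5' UTR peak, at chromosome 11, 69810019 to 69810162. Eif5a2 and Eif5b had no listed peak.

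The 10 peaks of elongation factors in the set had log2 folds between 3.44 and 4.26, all below the median of the list (4.60). Eef1b2 encodes the nucleotide exchange subunit of eEF1B and had 4 peaks classed as 3' UTR (3.84, 4.00, 3.60 and 3.91). They formed 2 pairs 1628 nt apart, so that the span of 1853 nt equals 50.7% of the gene's length in the RefSeq table. Eef1g, the gamma subunit of the same complex, had 3 exon peaks (4.10, 4.26 and 3.44). Eef2, the translocation factor, also had 3 in exons (4.05, 3.56 and 3.72). The strongest of these was 2 nt wide, and with peaks under 10 nt left out the strongest fold of Eef2 was 3.72. No peak was listed for Eef1d and Eef1e1, for the tissue-restricted Eef1a2, or for any of the 7 genes of the methyltransferases and the kinase that modify eEF1A and eEF2. These are Eef1akmt1, Eef1akmt2, Eef1akmt3, Eef1akmt4, Eef1aknmt, Eef2kmt and Eef2k. Eef1a1, an elongation factor gene outside the set by rule, had 20 peaks with a median log2 fold of 4.65 and the strongest at 6.36.

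**Figure D3:**
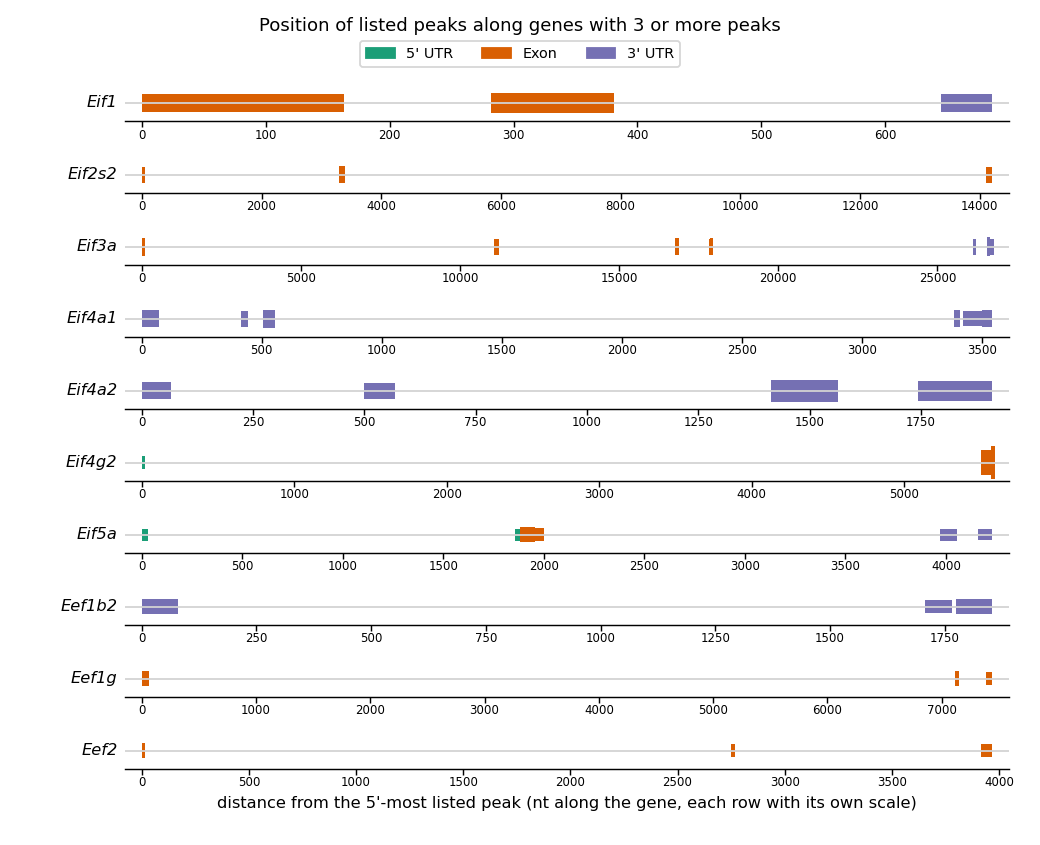
Listed peaks along the 10 genes with 3 or more peaks, as distance in nt from the 5'-most peak, each row on its own scale and with introns included. Boxes are peaks coloured by class, with height in proportion to log2 fold; very narrow peaks are drawn wider than they are so that they can be seen. The 6 peaks of Eif4a1 fall in 2 stretches 2827 nt apart, and the 8 of Eif3a span 26709 nt.

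By class, the 56 peaks comprised 27 of the 3' UTR, 26 of exons and 3 of the 5' UTR. The 3' UTR share was 48.2% (exact 95% interval 34.7 to 62.0%), against 58.0% of the peaks of other genes and 17.1% of the 304 peaks on cytosolic ribosomal protein genes. The interval of the translation factors holds the value of other genes. Peaks of 1 gene are not independent, so this interval is too narrow. By gene, 7 of the 18 were listed with 3' UTR peaks only and 7 with exon peaks only, while Eif1, Eif3a, Eif4g2 and Eif5a had more than 1 class. By the authors' class, neighbouring factors could differ: both eIF4A genes had 3' UTR peaks only and Eif4g3 exon peaks only. The transcript models behind the class are not known. The 3' UTR peaks of Eif4a1 and Eef1b2 span 64.5% and 50.7% of their genes' lengths. The 3' UTR share and this contrast thus rest on a class that could not be checked here. Median fold was alike in exons (4.33) and 3' UTRs (4.36), while the 3 peaks in 5' UTRs lay between 3.22 and 3.51.

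**Figure D4:**
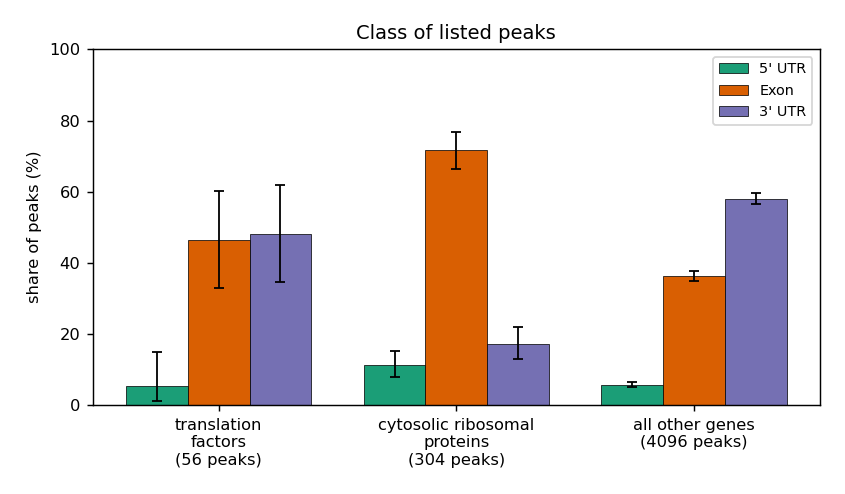
Share of listed peaks in each of the authors' classes, in percent, for the translation factors (56 peaks), cytosolic ribosomal proteins (304 peaks) and all other genes, which include the ribosomal proteins (4096 peaks). Error bars are exact 95% binomial intervals; the 3' UTR share is 48.2% in translation factors, 17.1% in ribosomal proteins and 58.0% in all other genes.

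Peaks on the translation factors were somewhat narrower than on all other genes together, with a median width of 65 nt against 80 nt. There were more of them per gene, with a median of 3 against 2. Cytosolic ribosomal protein genes went further in both, with a median width of 41 nt and a median of 4 peaks per gene. A single peak was listed for 4 of the 18 genes (22.2%), against 47.2% of other genes and 10.1% of ribosomal protein genes. The median -log10 p was 4.66, against 5.68. Of the 56 folds, 39 (69.6%) took a value that 1 input read in each library could give. The share was 83.3% for other genes and 59.2% for ribosomal protein genes. Such a value was taken by all peaks of Eif1, Eif2s2, Eif3a, Eif3e, Eif4a1, Eif4a2, Eif4b, Eif4g3 and Eif5, whose folds can thus rest on a minimal input count. It held for 1 of 3 peaks of Eif4g2, 2 of 4 of Eef1b2, 2 of 3 of Eef1g and 2 of 3 of Eef2. In each of these genes the strongest peak was among them, with the 3 nt peak of Eif4g2 at 8.94. It held for none of the 6 peaks of Eif5a, none of the 2 of Eif4ebp2 and not for the single peaks of Eif1ad, Eif3c and Eif4enif1. How far folds of 3 to 4 on these mRNAs go with more input reads was not tested.

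**Figure D5:**
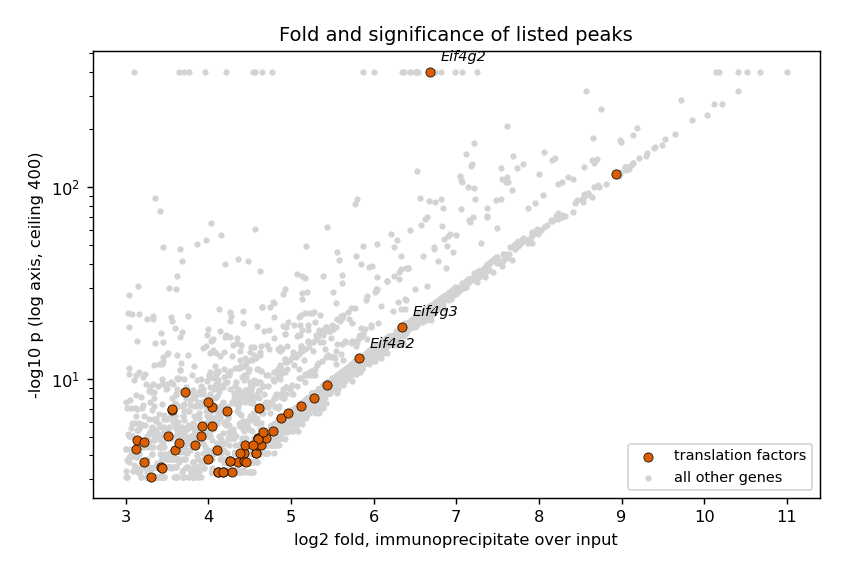
Log2 fold (x axis) against -log10 p (y axis, log scale, ceiling 400) for the listed peaks of translation factors and of all other genes except Eef1a1. Each point is 1 peak; most translation factor peaks lie below a log2 fold of 5, and Eif4g2 has a peak at the p ceiling.

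A trait that the naming rule did not use is the presence of snoRNA genes inside the gene. snoRNAs are small guide RNAs of rRNA modification that are often cut from introns of genes for the translation machinery. In the RefSeq table of GRCm38.p6, a snoRNA gene lies within the span of 7 of the 18 translation factor genes with a peak, namely Eef1b2, Eef2, Eif3a, Eif4a1, Eif4a2, Eif4g2 and Eif5. Among the 51 without a listed peak there are 2, Eif2ak3 and Eif4g1. Of other protein-coding genes, 5.86% of the 1587 with a peak and 1.33% of the 20244 without one hold such a gene. Cytosolic ribosomal protein genes are among these other genes and were not counted apart, so the trait is not shown to be particular to translation factors. Eif4a2 holds 5 and Eif4a1 holds 3. The median gene span was 13.1 kb for the 18 genes with a peak and 17.4 kb for the 51 without, and for other protein-coding genes 29.5 kb with a peak and 16.4 kb without. The part of gene length in these shares was not tested. The table gives no strand, its build is not that of the peaks, and whether any peak touches a snoRNA was not tested. The level of these mRNAs in 32D cells, which could differ between the sets, was not tested either.

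Other genes of the same pathway were counted from fixed lists beside these, with the background of 7.33% for all. Of 20 other cytosolic translation factors and initiation helpers 8 had a peak. The strongest was on Pdcd4, an inhibitor of eIF4A, with a log2 fold of 6.60 in the 5' UTR at chromosome 19, 53895859 to 53895926. Pabpc1, the poly(A)-binding protein that contacts eIF4G, had 9 peaks up to 5.42. Larp1, which binds mRNAs with a 5' terminal oligopyrimidine tract, reached 5.31 in the 3' UTR, and Bzw1, a relative of eIF5, 4.69. The other 4 had strongest folds between 4.25 and 4.43. Of 8 genes of termination and ribosome rescue only Etf1, the release factor eRF1, had peaks (2, up to 5.22).

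Signalling to these factors was counted in the same way. Of 12 genes of the mTOR and MNK pathway to eIF4F, 2 had a peak. These were the ribosomal protein gene Rps6 (4.59) and Rheb (4.34), the GTPase that activates mTOR. Of 9 genes of the integrated stress response around eIF2, 3 had a peak. Atf4, its main transcription factor, had 1 exon peak of 193 nt with a log2 fold of 5.38 at chromosome 15, 80141176 to 80141368. Ppp1r15a, which directs a phosphatase to eIF2, had 3 peaks up to 4.75 with the strongest in the 5' UTR, and Asns, the asparagine synthetase gene, had 2 up to 4.05. The lists are short, and their shares have exact 95% intervals of 2.09 to 48.4% for the mTOR list, which holds the background, and of 7.49 to 70.1% for the stress list, whose lower bound lies just above it.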

How the data were processed

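The series holds 2 NAT10 immunoprecipitates and 2 inputs of 32D cells and 1 deposited peak list. The authors computed a -log10 p and a log2 fold of immunoprecipitate over input for each peak, per the file headers; both scales were inferred from the deposited values. The submitters' processing notes name the build GRCm39. Aligner, peak caller, joining of replicates and depth: not given in the sources used here. Positions are counted from 1. Symbols were matched to RefSeq genes of GRCm38.p6 (1609 of 1626 matched), which gave names, gene types and lengths. Overlapping neighbours and snoRNA genes within spans were found from the coordinates of that build. No peak position printed here comes from it. No test was run, since the list has no library values; shares have Clopper-Pearson 95% intervals and medians binomial order-statistic intervals (Python 3.11.15, SciPy 1.17.1). Joined stretches are touching peaks of 1 gene and class. A fold fits 1 input read when 4 to the power of its distance from an offset of 0.80 is whole within 0.01; helper functions were tested on simulated data. Cytosolic ribosomal protein genes were taken by symbol (Rpl, Rps, Rplp, Rpsa and Fau). Every member is named; of each pathway list, up to 4 with the strongest peaks. Members and lists were chosen with earlier results of these data known. Reads of near-identical copies and pseudogenes may be shared.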

Additional observations from a re-analysis of the deposited data

How the results depend on the processing

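The 18 genes and 56 peaks depend on the authors' limits. With only peaks above the list's median fold, 6 genes and 15 peaks were left (background 3.95% of genes), and the median strongest fold of translation factors exceeded that of other genes by 0.25, against -0.35 in the full list. Their median strongest fold was then 5.55 and their median width 92 nt. The genes left were Eif1, Eif3a, Eif4a1, Eif4a2, Eif4g2 and Eif4g3. This filter acts on the same fold that is compared, so the difference of 0.25 holds for those genes and not for all 18. With a -log10 p of at least 5, 11 genes and 22 peaks were left (background 4.1%). The difference in median strongest fold was then -1.06 and the median width 78 nt. With the strongest peak of each gene the median width was 99 nt. Without the peaks that fit 1 input read, an alternative chosen after the data were seen, 9 genes were left. This filter took out 69.6% of the translation factor peaks and 83.3% of the peaks of other genes. The share of all protein-coding genes that it leaves was not counted. The 9 genes had a median strongest fold of 3.93, with no value for other genes to set beside it. The 3' UTR share of translation factor peaks minus that of other genes was -9.79 percentage points. It moved by over 1.5 times with a fold above the median (-20.1), with a -log10 p of at least 5 (-21.2), with the strongest peak of each gene (-18.4) and with Eef1a1 (-22.5). These and the other values not named here, 39 in all, kept their direction and stayed within the 95% interval of the full list's value or, for counts, within 1.5 times. No paired analysis was possible because the list holds no value per library. The depth behind each peak is unknown.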

Other observations

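Of 21 cytosolic aminoacyl-tRNA synthetase genes, which charge tRNAs with amino acids, 9 had a listed peak (42.9%, exact 95% interval 21.8 to 66.0%). The share of all protein-coding genes was 7.33%. The isoleucine enzyme gene Iars had the strongest, a 3' UTR peak of 239 nt with a log2 fold of 6.17 at chromosome 13, 49887223 to 49887461. Yars (4.51), Wars (4.50) and Tars (4.25) came next, and the other 5 had strongest folds between 3.53 and 4.19. Of 10 mitochondrial translation factors Guf1 alone had a peak (4.05, 3' UTR). That share of 10% has an exact 95% interval from 0.253 to 44.5%, which holds the background of 7.33%. The difference between these lists was not tested.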
